A study of Mus musculus with 24 samples.

Results

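CD8 T cells activated with ovalbumin peptide alone were compared after 72 h and after 24 h of culture. The comparison used the 4 libraries that the labels call OVA_72h and the 4 that they call OVA_24h, 8 of the 24 libraries in the series, and described all 14560 genes with enough counts to be tested. Both groups came from spleen cell cultures of OT-1 mice, a strain with a transgenic T cell receptor that recognises an ovalbumin peptide on the class I molecule H2-Kb. Peptide was given to whole splenocytes, so the T cells were activated beside the other cells of the spleen, and T cells were then enriched by immunomagnetic negative selection, in which other cells are removed with antibodies. Neither group received a Toll-like receptor (TLR) agonist. The remaining 16 libraries, TLR2 at 72 h and 24 h and TLR7 at 72 h and 24 h with 4 libraries each, came from cultures given peptide and an agonist, and they entered through the shared estimate of the spread and through a test of whether the time effect differed. The labels do not state the age or sex of the mice or whether replicates came from separate animals.

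A naive CD8 T cell that meets its peptide first enlarges, builds ribosomes and enters S phase, and secretes cytokines and chemokines while contact with antigen lasts. In later days the daughter cells keep dividing and acquire effector molecules. When the stimulus wanes, growth slows and genes of the resting state, among them the receptor for interleukin-7, can return.

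The 8 libraries held 11.1 M (mega) counts in OVA 24 h replicate 4 and 21.5 to 24.5 M in the other 7. CPM (counts per mega) are given with library totals scaled by TMM (trimmed mean of M values). By unscaled totals, 3 counts correspond to 0.122 to 0.270 CPM. These floors cover counting error only. Markers of CD8 T cells were present throughout, with Cd8a, which encodes the alpha chain of CD8, at 607, 758, 684 and 842 CPM in OVA 72 h replicates 1 to 4 and at 655, 904, 622 and 870 CPM in OVA 24 h replicates 1 to 4. The helper cell coreceptor gene Cd4 lay at or below 0.501 CPM at 72 h and between 0.949 and 2.00 CPM at 24 h.

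The libraries of each time were not alike. On the first principal component of all 24 libraries (60.2% of the variance), OVA 72 h replicates 1 to 4 scored -87.6, -73.4, -56.5 and -1.2, and OVA 24 h replicates 1 to 4 scored -20.5, 94.3, -12.5 and 91.1. OVA 72 h replicate 4 and OVA 24 h replicates 1 and 3 thus lay between the others. As a weighted sum of the mean of OVA 72 h replicates 1 to 3 and the mean of OVA 24 h replicates 2 and 4, the best weight on the 24 h mean was 0.545 for OVA 72 h replicate 4, 0.392 for OVA 24 h replicate 1 and 0.451 for OVA 24 h replicate 3. Another library, OVA 72 h replicate 3, stood apart differently: 90 genes were at least 4-fold higher in it than in each of the other 7 OVA libraries, against 0 to 13 genes for any other single library. What set these libraries apart was not tested.

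**Figure D1:**
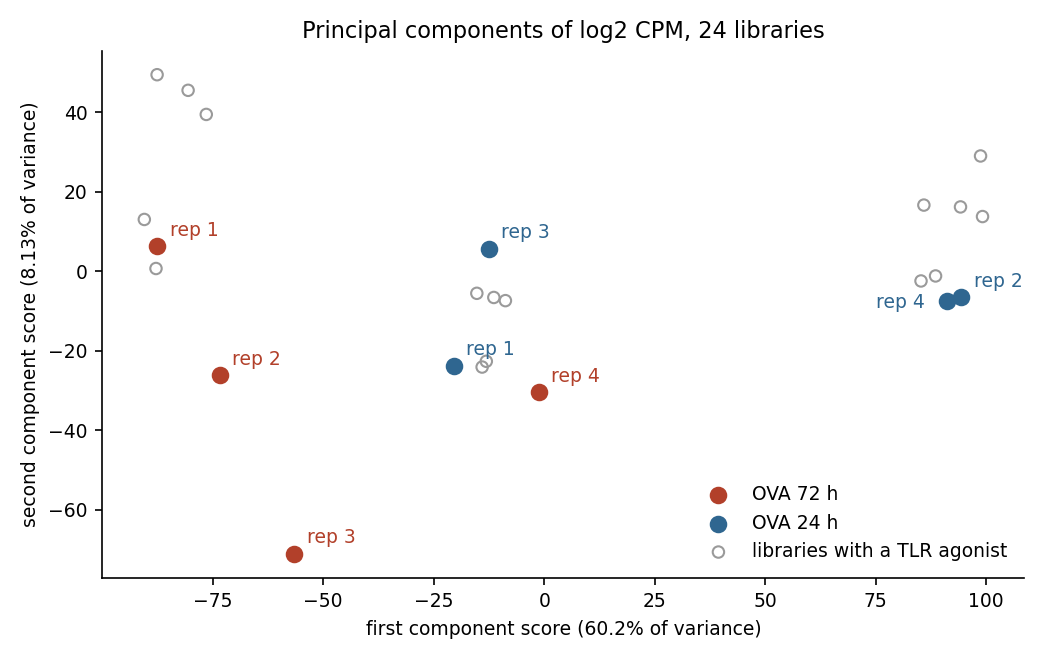
Scores of the 24 libraries on the first component (horizontal axis) and the second component (vertical axis) of log2 CPM. Filled points are OVA 72 h (red) and OVA 24 h (blue) with replicate numbers, and open grey points are libraries with a TLR agonist. Between the ends sit OVA 72 h replicate 4 (-1.2) and OVA 24 h replicates 1 and 3 (-20.5 and -12.5), and OVA 72 h replicate 3 has the lowest second-component score of the 8 OVA libraries.

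Gene expression differed widely between the times. With edgeR's quasi-likelihood test and Benjamini-Hochberg adjustment over the 14560 genes, 2710 genes (18.6%) had an adjusted p under 0.05 and are termed called. Of these, 1190 (8.17% of the genes tested) were higher at 72 h and 1520 (10.4%) lower. Changes of at least 2-fold were found for 570 called genes upward (3.91%) and 688 downward (4.73%). In 1545 genes (10.6%) the 4 libraries of one time did not overlap the 4 of the other, 986 of them higher at 72 h (6.77%) and 559 lower (3.84%). The median log2 fold change of all genes was 0.09.

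These calls lie close to the threshold. The smallest adjusted p was 0.0127, and 99.9% of the calls had one above 0.03. They rest on the spread pooled over all 24 libraries: a fit on the 8 OVA libraries called 0 genes, and 3505 had an unadjusted p under 0.05. Leaving out 1 OVA library at a time gave 0 to 4710 calls: 0 without OVA 24 h replicate 4 or OVA 72 h replicate 2, 1 without OVA 24 h replicate 2, 3 without OVA 72 h replicate 3, 118 without OVA 72 h replicate 1, 2894 without OVA 24 h replicate 3, 4350 without OVA 24 h replicate 1 and 4710 without OVA 72 h replicate 4. Over these fits the log2 fold change of the called genes kept its sign, other than 7 genes that reversed without OVA 72 h replicate 3. Without the 3 libraries between the times and the 5 like them in the TLR groups, 27.8% of the 14560 genes were called higher and 23.6% lower. Because those 8 libraries were singled out by their measured expression, values without them are given below as descriptions.

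**Figure D2:**
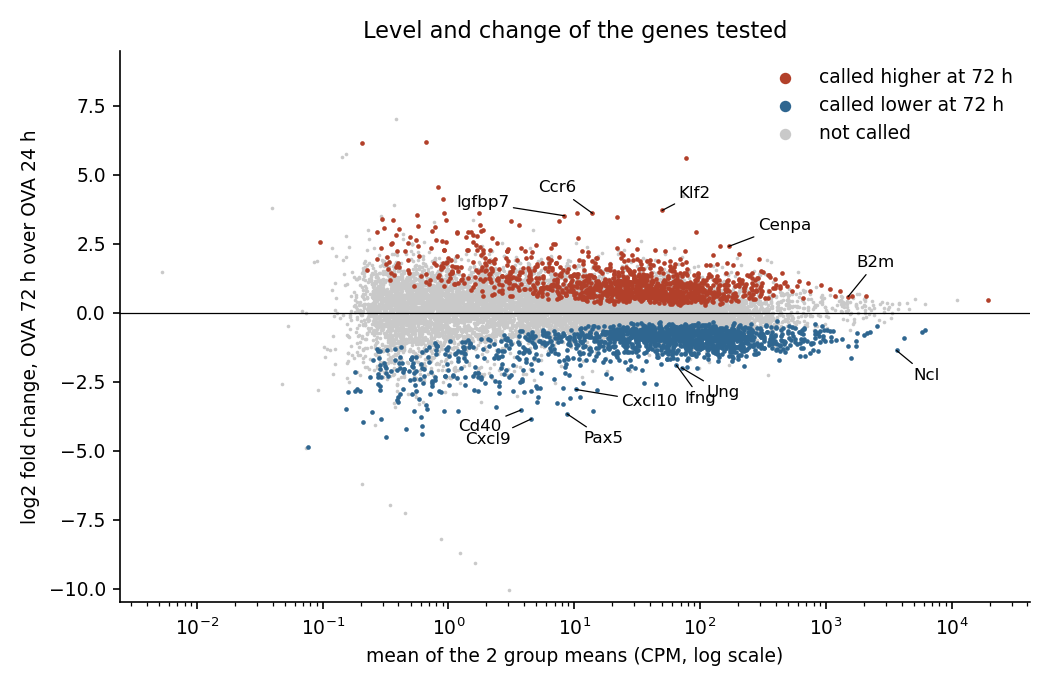
Each point is 1 of the 14560 genes, with the mean of both group means in CPM on a log axis and the log2 fold change of OVA 72 h over OVA 24 h on the vertical axis. Red marks the 1190 genes called higher at 72 h, blue the 1520 called lower, and grey the rest.

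Genes for the machinery that builds ribosomes fell. Of 38 genes of ribosome biogenesis tested, 37 were lower at 72 h and 0 higher, against 10.4% of all genes lower. Their median log2 fold change was -1.30 and their range -1.73 to -0.39. Ncl (ENSMUSG00000026234, chromosome 1, 86344719 to 86359400, GRCm38), which encodes nucleolin, a main protein of the nucleolus, had 1461, 1664, 1107 and 3931 CPM in OVA 72 h replicates 1 to 4 and 3286, 8302, 3448 and 5999 CPM in OVA 24 h replicates 1 to 4. Only OVA 72 h replicate 4 reached the 24 h range. The log2 fold change of Ncl was -1.37 (standard error 0.37, adjusted p = 0.0333 in edgeR's test). Utp20, a component of the small subunit processome, had 43.9, 42.2, 27.1 and 220 CPM at 72 h and 193, 298, 220 and 398 CPM at 24 h. Its log2 fold change was -1.73 (standard error 0.52, adjusted p = 0.036 in edgeR's test), and -2.89 without OVA 72 h replicate 4.

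Among the genes for box C/D particles, which guide methylation of ribosomal RNA, Fbl fell by 1.32, Nop56 by 1.29 and Nop58 by 1.43 on the log2 scale. Dkc1, the pseudouridine synthase of the box H/ACA particles, fell by 1.48, and had a log2 fold change of -2.28 without OVA 72 h replicate 4. Polr1b, a subunit of RNA polymerase I, had 62.8, 41.6, 28.3 and 149 CPM at 72 h and 139, 249, 154 and 259 CPM at 24 h, a log2 fold change of -1.51 (standard error 0.40, adjusted p = 0.0333 in edgeR's test). Nolc1, a nucleolar chaperone, and the assembly factors Nop16 and Rrp12 had log2 fold changes of -1.70, -1.61 and -1.56. Nob1, the nuclease that makes the final cut of 18S ribosomal RNA, changed less, at -0.57. Polr1c, shared by RNA polymerases I and III, was the member not called, with a log2 fold change of -0.39 (standard error 0.14, adjusted p = 0.0608 in edgeR's test). Without the 8 libraries the median of the list was -2.12.

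Genes for the ribosomal proteins themselves did not fall with the assembly factors. Of 40 tested, 1 was called higher (2.5%) and 0 lower, under the 8.17% and 10.4% of all genes. The median log2 fold change was 0.31, or 0.116 without OVA 72 h replicate 1. The called one was Rps27, with 1345, 1168, 2314 and 912 CPM at 72 h and 907, 1165, 890 and 758 CPM at 24 h. Its log2 fold change of 0.63 (standard error 0.21, adjusted p = 0.0434 in edgeR's test) was 0.30 without OVA 72 h replicate 3, the highest library.

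Cell cycle genes divided by phase. Of 40 genes of DNA replication and the entry into S phase, 15 were lower at 72 h, against 10.4% of all genes, and 0 higher, at a median log2 change of -0.80. Of 40 genes of mitosis and G2, 12 were higher and 0 lower, against 8.17% of all genes higher, with a median of 0.95. In 24 of these 40 mitotic genes the groups did not overlap, against 10.6% of all genes. Without the 8 libraries the medians were -1.39 for the replication genes and 1.42 for the mitotic genes.

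In the replication group, all 6 listed genes of the MCM helicase, which unwinds DNA at the fork, were called lower. Mcm4 (chromosome 16, 15623897 to 15637400, GRCm38) had 149, 158, 131 and 494 CPM in OVA 72 h replicates 1 to 4 and 366, 757, 456 and 738 CPM in OVA 24 h replicates 1 to 4. Here too OVA 72 h replicate 4 was within the 24 h range and the other 3 below it. The log2 fold change was -1.32 (standard error 0.41, adjusted p = 0.0386 in edgeR's test), and -2.01 without OVA 72 h replicate 4. Mcm2 and Mcm3 each had a log2 fold change of -1.17, and Mcm5, Mcm6 and Mcm7 had -1.11, -0.76 and -1.07. Ung, a uracil glycosylase that repairs newly made DNA, had 17.5, 11.9, 9.56 and 75.3 CPM at 72 h and 67.5, 165, 81.3 and 142 CPM at 24 h. It had the lowest log2 fold change of the list, -1.99 (standard error 0.60, adjusted p = 0.0352 in edgeR's test), and -3.14 without OVA 72 h replicate 4. Pcna, the sliding clamp of the polymerases, fell by 0.95 and E2f1, a transcription factor that drives S phase entry, by 1.01 on the log2 scale. Rrm2, a subunit of ribonucleotide reductase, was not called, with 136, 142, 67.6 and 256 CPM at 72 h and 128, 309, 166 and 157 CPM at 24 h (adjusted p = 0.503 in edgeR's test).

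In the mitotic group Cenpa, which encodes the histone H3 variant of the centromere, had 216, 444, 271 and 209 CPM in OVA 72 h replicates 1 to 4 and 126, 16.8, 55.5 and 16 CPM in OVA 24 h replicates 1 to 4. All 4 libraries at 72 h exceeded all 4 at 24 h, and OVA 24 h replicates 1 and 3 were the highest at their time. The log2 fold change was 2.41 (standard error 0.80, adjusted p = 0.0437 in edgeR's test). Plk1, a kinase needed for the mitotic spindle, had 40.4, 42.6, 27.8 and 34.4 CPM at 72 h and 18.4, 6.86, 18.1 and 3.71 CPM at 24 h, again with no overlap. Its log2 fold change was 1.61 (standard error 0.56, adjusted p = 0.0496 in edgeR's test). Cdc25b, a phosphatase that starts mitosis, Nusap1, a spindle protein, and Aurka, a centrosome kinase, rose by 1.87, 1.83 and 1.17 on the log2 scale. Mki67, the proliferation marker Ki-67, had 541, 962, 430 and 666 CPM at 72 h and 368, 182, 288 and 126 CPM at 24 h, a log2 fold change of 1.43 (standard error 0.49, adjusted p = 0.0485 in edgeR's test). Ccnb1, cyclin B1, rose by 0.96, whereas its partner kinase Cdk1 had a log2 fold change of -0.11 (standard error 0.26, adjusted p = 0.764 in edgeR's test).

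Promoter sequences of Cenpa and Plk1 are shown because they hold both elements known for genes of late cell cycle, the cell cycle homology region (CHR, TTTGAA) and the CCAAT box, and that of Mcm3 because it holds E2F motifs. Each runs from 250 bases before to 50 after the annotated start, from RefSeq on GRCm38.p6, at chr5:30666636-30666935 on the plus strand for Cenpa, chr7:122159185-122159484 on the plus strand for Plk1 and chr1:20820263-20820562 on the minus strand for Mcm3. Capitals mark CHR and CCAAT matches on either strand in Cenpa and Plk1, and E2F matches on either strand in Mcm3, searched as TTTCGCG in one form, TTTCCCG in another and TTTGGCG in the last.
Cenpa: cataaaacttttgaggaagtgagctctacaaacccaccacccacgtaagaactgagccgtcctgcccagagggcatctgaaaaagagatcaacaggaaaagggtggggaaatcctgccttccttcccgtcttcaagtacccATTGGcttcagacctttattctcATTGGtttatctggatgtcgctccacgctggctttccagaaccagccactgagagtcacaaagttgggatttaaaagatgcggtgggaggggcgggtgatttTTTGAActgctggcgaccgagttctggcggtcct
Plk1: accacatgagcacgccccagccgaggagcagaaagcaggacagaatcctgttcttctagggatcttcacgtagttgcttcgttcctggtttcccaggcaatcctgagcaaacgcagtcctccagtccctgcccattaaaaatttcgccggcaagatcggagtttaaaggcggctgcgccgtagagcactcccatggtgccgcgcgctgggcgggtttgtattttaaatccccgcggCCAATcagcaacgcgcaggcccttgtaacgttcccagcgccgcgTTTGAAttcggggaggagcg
Mcm3: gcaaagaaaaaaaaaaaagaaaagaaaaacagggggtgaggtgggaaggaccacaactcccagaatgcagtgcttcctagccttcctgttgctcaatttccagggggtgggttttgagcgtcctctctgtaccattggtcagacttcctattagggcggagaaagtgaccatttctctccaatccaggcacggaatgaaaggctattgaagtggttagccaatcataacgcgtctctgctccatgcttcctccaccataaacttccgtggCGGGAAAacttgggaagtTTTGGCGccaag

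Of the mitotic genes, 34 matched a RefSeq promoter, and TTTGAA was found on either strand in 24 of them (70.6%), against 12% of 9743 tested genes with a promoter. CCAAT was found in 26 of the 34 (76.5%), against 39.2%. An E2F motif as spelled above was found in 15 of the 34 replication gene promoters matched (44.1%), against 9.98% of the tested genes. The E-box CACGTG, a motif bound by Myc, was found in 8 of 33 ribosome biogenesis promoters (24.2%), against 10.3%. A match is a description of the sequence and not evidence of binding.

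Some genes that restrain the cycle were higher at 72 h. Of 14 genes for inhibitors of cyclin-dependent kinases, D cyclins and their partners tested, 4 were higher (28.6%) and 2 lower (14.3%). Of all genes, 8.17% were higher and 10.4% lower. Cdkn1b, which encodes the inhibitor p27, had 43.3, 89.0, 155 and 32.7 CPM at 72 h and 43.7, 9.81, 22.8 and 14.4 CPM at 24 h. OVA 24 h replicate 1 lay within the 72 h range, and the log2 fold change was 1.81 (standard error 0.49, adjusted p = 0.0333 in edgeR's test). Ccng2, a cyclin linked to cell cycle exit, rose by 2.23, Cdkn2d (p19) by 1.41 and Cdkn2c (p18) by 1.09 on the log2 scale. Cdkn1a (p21) was not called, with a log2 fold change of 0.55 (standard error 0.35, adjusted p = 0.242 in edgeR's test). The D-type cyclin gene Ccnd2 and its kinase gene Cdk4 fell by 1.01 and 0.70.

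**Figure D3:**
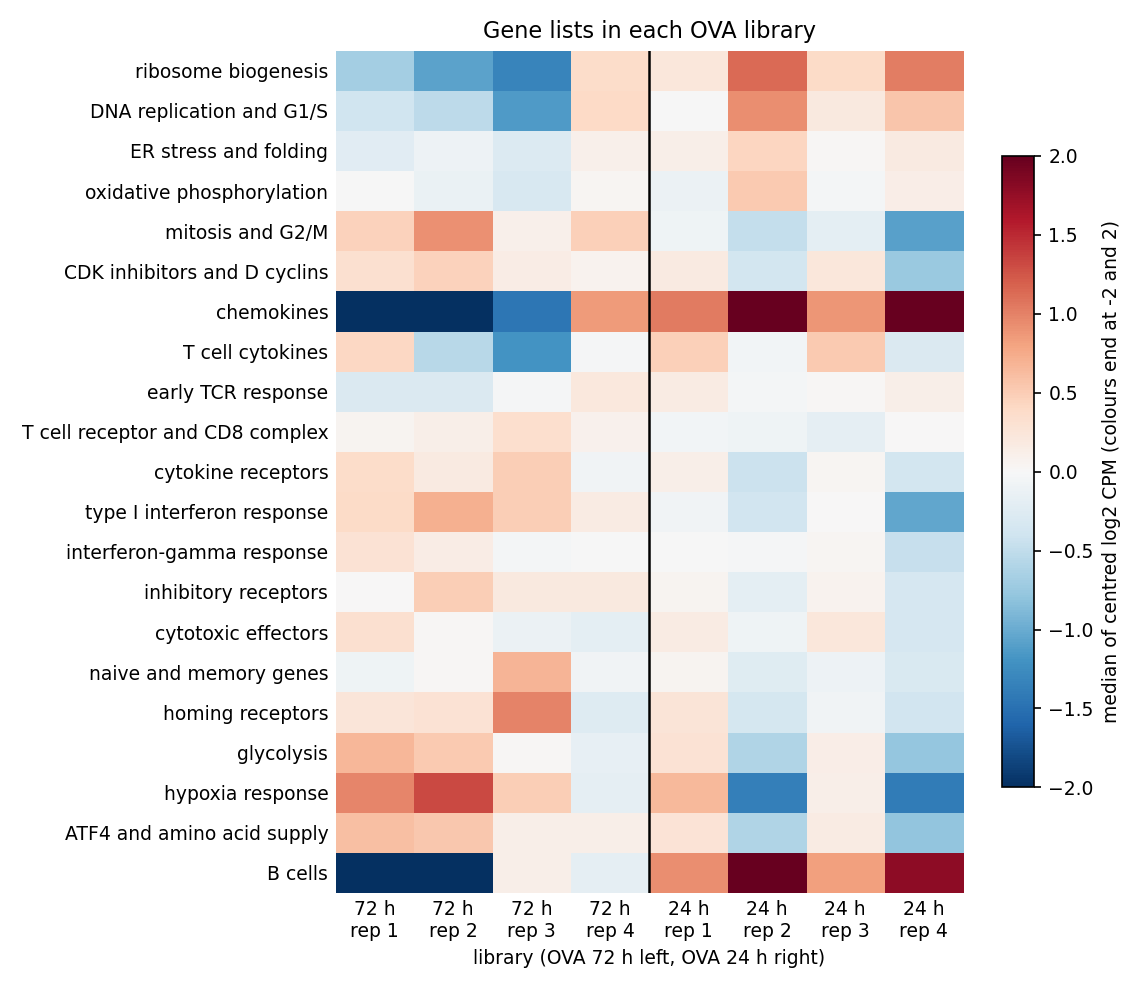
Median log2 CPM of the members of each list (rows), centred for each gene on the mean of the 8 OVA libraries, in OVA 72 h replicates 1 to 4 (left) and OVA 24 h replicates 1 to 4 (right). Red is above and blue below the mean. Ribosome biogenesis runs at -0.67, -1.06, -1.33 and 0.36 at 72 h and at 0.23, 1.14, 0.38 and 1.03 at 24 h, so that OVA 72 h replicate 4 and OVA 24 h replicates 1 and 3 are alike.

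Several secreted signals were lower at 72 h. Of 12 chemokine genes tested, 4 were lower, against 10.4% of all genes, and 0 higher. The median log2 fold change was -2.17, or -4.78 without OVA 72 h replicate 4. The 4 were Cxcl11 and the 3 that follow. Cxcl10 (chromosome 5, 92346638 to 92348889, GRCm38), a ligand of CXCR3 induced by interferon-gamma, had 1.26, 1.31, 2.37 and 5.46 CPM in OVA 72 h replicates 1 to 4 and 12.3, 30.5, 11.1 and 17.9 CPM in OVA 24 h replicates 1 to 4. The groups did not overlap, and the log2 fold change was -2.78 (standard error 0.64, adjusted p = 0.0333 in edgeR's test). Cxcl9, a second CXCR3 ligand, and Ccl22, a ligand of CCR4 made by dendritic cells, had log2 fold changes of -3.84 and -3.30, and -7.07 and -5.41 without OVA 72 h replicate 4.

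Xcl1, Ccl3 and Ccl4, which activated CD8 T cells make themselves, were high in OVA 72 h replicate 4 and low in the other 3 libraries at 72 h. Ccl5, also on the list, was instead highest in OVA 72 h replicate 3. It had 4.33, 3.84, 43.6 and 5.62 CPM at 72 h and 4.68, 10.4, 5.61 and 7.42 CPM at 24 h. Xcl1, the ligand of XCR1, had 9.51, 33.1, 19.8 and 423 CPM at 72 h and 293, 972, 264 and 765 CPM at 24 h. Ccl3 had 2.40, 3.34, 4.6 and 235 CPM at 72 h and 104, 285, 75.6 and 186 CPM at 24 h, and Ccl4, a related chemokine, had 3.28, 2.62, 3.55 and 278 CPM at 72 h and 165, 416, 154 and 344 CPM at 24 h. Xcl1, Ccl3 and Ccl4 were not called, with edgeR adjusted p values of 0.12, 0.316 and 0.191. Without the 8 libraries their log2 fold changes were -5.38, -6.10 and -6.91.

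Among 14 T cell cytokine genes tested, 1 was lower (7.14%, under the 10.4% of all genes) and 0 higher. The only one called was Ifng (chromosome 10, 118441046 to 118445892, GRCm38). It encodes interferon-gamma and had 35.9, 17.6, 8.56 and 47.5 CPM at 72 h and 186, 121, 44.8 and 58.1 CPM at 24 h. OVA 24 h replicate 3 fell below OVA 72 h replicate 4, and the log2 fold change was -1.90 (standard error 0.58, adjusted p = 0.036 in edgeR's test). Il2, the gene for the T cell growth factor interleukin-2, followed the same libraries as Xcl1, Ccl3 and Ccl4. It had 0.252, 0.380, 0.364 and 66.3 CPM at 72 h and 15.7, 46.2, 13.2 and 33.3 CPM at 24 h. The highest of all 8 was OVA 72 h replicate 4, and Il2 was not called (log2 fold change -0.68, standard error 1.19, adjusted p = 0.681 in edgeR's test). Tnf had 18.3, 14, 8.28 and 22.8 CPM at 72 h and 15.3, 12, 16.5 and 9.19 CPM at 24 h, and was not called either (adjusted p = 0.489 in edgeR's test).

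The T cell receptor apparatus changed in part. Of 18 genes for the receptor, CD8 and proximal signalling, 5 were higher (27.8%) and 2 lower (11.1%), against 8.17% and 10.4% of all genes. Cd2, an adhesion receptor that aids contact with antigen-presenting cells, had 442, 396, 323 and 240 CPM at 72 h and 198, 73.1, 243 and 44.5 CPM at 24 h, a log2 fold change of 1.33 (standard error 0.39, adjusted p = 0.0349 in edgeR's test). The CD3 chain genes Cd3g and Cd3d rose by 1.07 and 0.99 on the log2 scale. Cd5 and Cd6, scavenger receptors that dampen T cell receptor signals, fell by 1.12 and 1.01. Cd5 had 149, 148, 153 and 323 CPM at 72 h and 308, 518, 306 and 550 CPM at 24 h, OVA 72 h replicate 4 being the one library at 72 h within the 24 h range.

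Genes that follow receptor engagement did not move as a group. Of 30 tested, 3 were higher (10.0%) and 3 lower (10.0%), near the 8.17% and 10.4% of all genes. The median log2 fold change was -0.01, between -0.177 and 0.09 on leaving out 1 OVA library. Egr1, an immediate early transcription factor, had 57.0, 52.8, 47.7 and 52.0 CPM at 72 h and 45.1, 29.7, 30.4 and 30.4 CPM at 24 h, without overlap, and rose by 0.63 (standard error 0.16, adjusted p = 0.0333 in edgeR's test). Dusp6, a phosphatase that limits ERK, rose by 0.72 on the log2 scale. Tnfaip3 (A20), an inhibitor of NF-kB, had a log2 fold change of 1.49, and 0.85 without OVA 72 h replicate 3, where it was highest. The nuclear receptor gene Nr4a2 fell by 0.99, Irf4, a factor that scales with receptor signal strength, by 0.83, and the NF-kB subunit gene Rel by 1.01. Among 22 genes for AP-1 and NF-kB factors, 0 were higher. Rel and Nfkb1, which fell by 0.62, were lower (9.09%, near the 10.4% of all genes). Myc was not called, with 432, 245, 159 and 314 CPM at 72 h and 390, 348, 381 and 326 CPM at 24 h (adjusted p = 0.243 in edgeR's test).

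**Figure D4:**
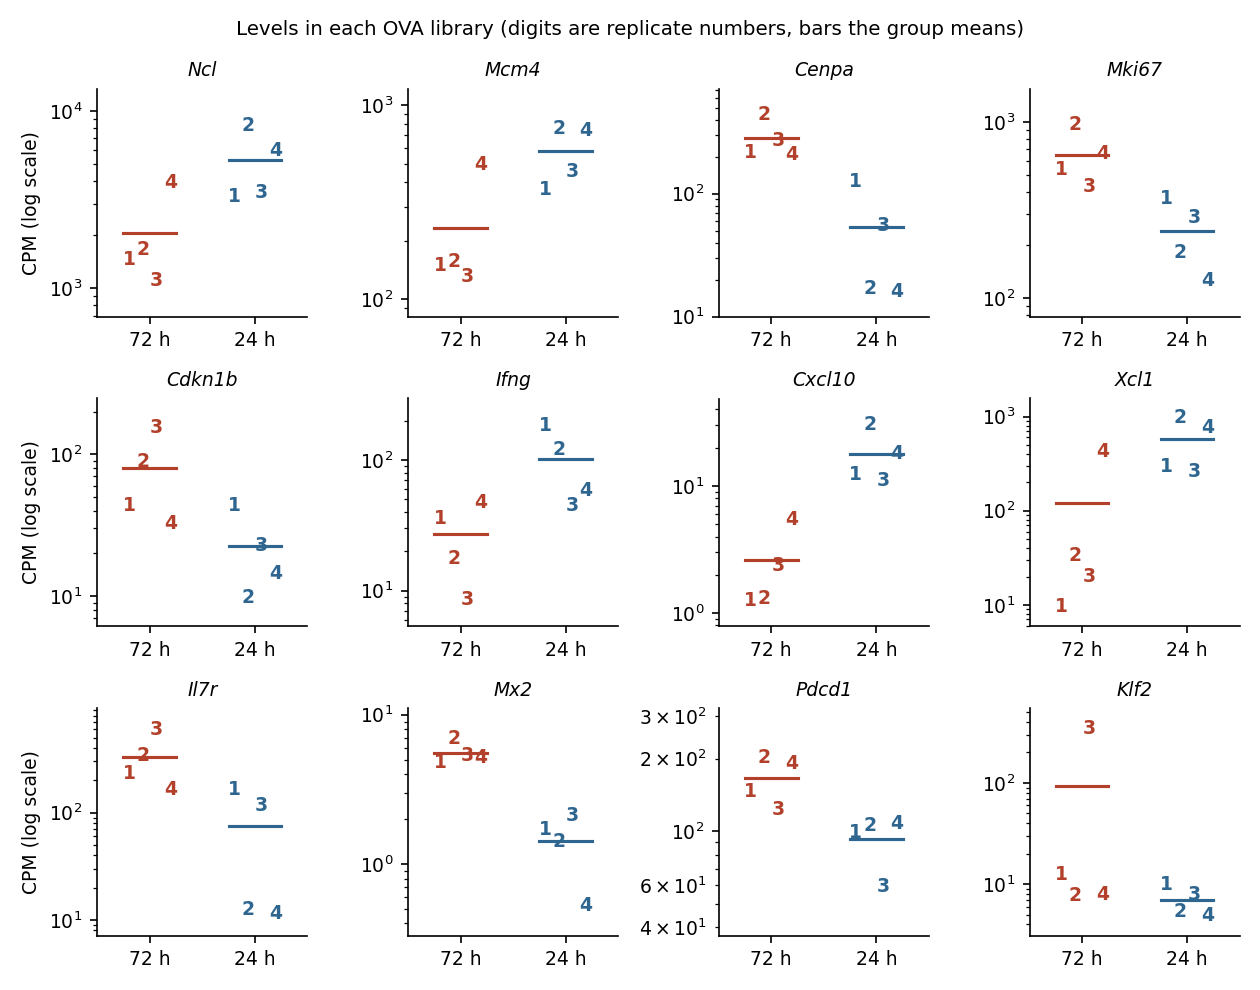
CPM on log axes of 12 genes in each OVA library, with OVA 72 h left and OVA 24 h right. Digits are replicate numbers and bars are means of 4 libraries. In Xcl1 OVA 72 h replicate 4 (423 CPM) lies with the 24 h libraries (264 to 972 CPM), and in Klf2 OVA 72 h replicate 3 (344 CPM) lies above all others (4.95 to 12.4 CPM).

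Several receptors for cytokines were higher at 72 h. Of 26 tested, 7 were higher, against 8.17% of all genes, and 0 lower. The median log2 change was 0.45, and it was 0.12 without OVA 72 h replicate 1, 0.152 without OVA 72 h replicate 3, 0.158 without OVA 24 h replicate 2 and 0.271 without OVA 24 h replicate 4. Il7r (chromosome 15, 9505788 to 9530176, GRCm38), which encodes the alpha chain of the receptor for the survival factor interleukin-7, had 233, 341, 591 and 164 CPM in OVA 72 h replicates 1 to 4 and 163, 12.4, 116 and 11.4 CPM in OVA 24 h replicates 1 to 4. The groups did not overlap, although OVA 72 h replicate 4 and OVA 24 h replicate 1 were nearly equal. The log2 fold change was 2.13 (standard error 0.74, adjusted p = 0.0499 in edgeR's test). Receptor chains for interferons rose, with log2 fold changes of 1.94 for Ifngr1 and 1.2 for Ifnar1, and so did Il10rb, at 1.07, a chain of the interleukin-10 receptor. Ifngr2 (1.48) and Tgfbr2 (1.00), a receptor for TGF-beta, were highest in OVA 72 h replicate 3, and their log2 fold changes were 0.40 and 0.10 without it.

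Chains that enlarge the response to interleukin-2 and interleukin-12 varied more within a time. Il2ra, the high-affinity chain CD25, had 1533, 993, 411 and 888 CPM at 72 h and 1110, 759, 1469 and 787 CPM at 24 h and was not called (adjusted p = 0.787 in edgeR's test). Il12rb2 had 1072, 1316, 501 and 639 CPM at 72 h and 622, 36.7, 568 and 34.6 CPM at 24 h. It was not called (log2 fold change 1.48, standard error 0.66, adjusted p = 0.102 in edgeR's test), and OVA 24 h replicates 1 and 3 were far above replicates 2 and 4. Among the STAT genes that carry these signals, Stat3 and Stat5b each had a log2 fold change of 1.14, that of Stat5b being 0.72 without OVA 72 h replicate 3, and Stat5a fell by 0.69.

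Part of the interferon-stimulated genes were higher at 72 h. Of 37 type I interferon response genes tested, 13 were higher (35.1%) and 1 lower (2.70%), against 8.17% and 10.4% of all genes. Their median log2 fold change was 0.72. In 19 of the 37 the groups did not overlap, against 10.6% of all genes. Mx2, a member of the antiviral Mx family that GENCODE lists as a polymorphic pseudogene, had 4.76, 6.93, 5.37 and 5.14 CPM at 72 h and 1.69, 1.41, 2.10 and 0.530 CPM at 24 h, a log2 fold change of 1.92 (standard error 0.64, adjusted p = 0.0429 in edgeR's test). Ifi27l2a, which has near-identical copies, had 232, 291, 227 and 225 CPM at 72 h and 62.0, 29.3, 78.1 and 11.0 CPM at 24 h, again without overlap. Rsad2 (viperin) and Xaf1, a regulator of apoptosis, rose by 1.61 and 1.31 on the log2 scale. Oas2, a sensor of double-stranded RNA, moved the other way, with 0.210, 1.27, 1.00 and 0.916 CPM at 72 h and 2.44, 2.86, 2.47 and 2.39 CPM at 24 h and a log2 fold change of -1.58 (standard error 0.54, adjusted p = 0.0459 in edgeR's test).

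Of 32 interferon-gamma response genes, 7 were higher (21.9%) and 2 lower (6.25%), against 8.17% and 10.4% of all genes. B2m, the light chain of class I molecules, had 1848, 2124, 1856 and 1388 CPM at 72 h and 1273, 1314, 1327 and 893 CPM at 24 h, a log2 fold change of 0.59 (standard error 0.14, adjusted p = 0.0333 in edgeR's test). Tap1, the peptide transporter, Psmb9, a subunit of the immunoproteasome, and the heavy chain gene H2-D1, which has close relatives among the H2 genes, rose by 0.79, 0.88 and 0.88. The 2 that fell were Ciita, the master regulator of class II genes, at -2.64, and Irf8 at -0.97. Ciita is expressed in B cells and dendritic cells, whose markers are given at the end.

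Inhibitory receptors rose in part. Of 17 tested, 3 were higher (17.6%) and 0 lower, against 8.17% and 10.4% of all genes. The 3 were Tigit and Cd96, both at 0.99, which bind CD155, and Lgals9, galectin-9, at 0.93. Tigit had 200, 212, 129 and 137 CPM at 72 h and 125, 51.5, 119 and 45.0 CPM at 24 h, without overlap. Pdcd1 (PD-1) had 147, 203, 123 and 190 CPM at 72 h and 98.9, 106, 59.1 and 108 CPM at 24 h. Every library at 72 h exceeded every library at 24 h, and the log2 fold change of 0.84 (standard error 0.41) was not called (adjusted p = 0.131 in edgeR's test). Ctla4 and Lag3 were not called either, with log2 fold changes of 0.86 and 0.45, and 2.69 and 1.23 without the 8 libraries. Of 17 costimulatory receptors and ligands, 1 was higher (5.88%) and 1 lower (5.88%), under the 8.17% and 10.4% of all genes. Tnfrsf4 (OX40) rose by 1.37, with 374, 461, 259 and 260 CPM at 72 h and 245, 82.2, 145 and 51.8 CPM at 24 h. Slamf1 fell by 1.28.

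No gene of the cytotoxic list was called, 0 of 17 by edgeR, against 18.6% of all genes. The median log2 fold change was -0.06, between -0.203 and 0.0058 on leaving out 1 OVA library. Without the 8 libraries between the times, which is a description, the median was 0.51. Gzmb, the gene for granzyme B, had 2694, 1757, 711 and 873 CPM at 72 h and 1587, 799, 1913 and 324 CPM at 24 h, with overlapping groups (log2 fold change 0.38, standard error 0.42, adjusted p = 0.496 in edgeR's test). Prf1, perforin, had 137, 56.5, 44.0 and 41.2 CPM at 72 h and 92.1, 59.3, 115 and 54.0 CPM at 24 h (adjusted p = 0.627 in edgeR's test). Among 10 killer-lectin receptors 1 was higher, Klrc2 at 1.23 (10.0%, near the 8.17% of all genes), and 0 lower. Klrk1 (NKG2D) had 305, 502, 207 and 241 CPM at 72 h and 162, 21.9, 117 and 14.7 CPM at 24 h without passing (adjusted p = 0.0563 in edgeR's test). Eomes, a transcription factor of effector and memory cells, fell by 1.04, with 3.75, 4.98, 10.8 and 9.44 CPM at 72 h and 13.6, 20.9, 9.86 and 15.3 CPM at 24 h.

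Of 22 genes of naive and memory cells tested, 6 were higher, against 8.17% of all genes, and 1 lower. The median log2 fold change was 0.56, or 0.169 without OVA 72 h replicate 3. Dapl1, a gene of resting T cells, had 56.5, 151, 86.6 and 84.1 CPM at 72 h and 37.9, 42.6, 14.1 and 24.0 CPM at 24 h, without overlap. Klf2, a factor of quiescent T cells that drives exit from tissues, had 12.4, 7.65, 344 and 7.85 CPM at 72 h and 9.92, 5.41, 7.88 and 4.95 CPM at 24 h. S1pr1, the receptor through which T cells leave lymphoid organs, had 42.9, 29.4, 565 and 15.8 CPM at 72 h and 30.9, 8.45, 35.7 and 11.0 CPM at 24 h. Both were called (3.71 and 2.92), and without OVA 72 h replicate 3 their log2 fold changes were 0.40 and 0.44. Tcf7 (TCF1), a factor of memory and stem-like cells, had 99.1, 197, 988 and 191 CPM at 72 h and 171, 167, 108 and 183 CPM at 24 h and was not called (adjusted p = 0.0542 in edgeR's test). Foxp1, which holds naive T cells at rest, fell by 0.73.

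Homing receptors gave 6 higher and 1 lower of 24 tested, against 8.17% of all genes higher and 10.4% lower. The median log2 fold change was 0.68, or -0.0024 without OVA 72 h replicate 3. Ccr6, the receptor of CCL20, had 18.7, 38.0, 19.3 and 27.2 CPM at 72 h and 5.90, 0.818, 0.577 and 0.972 CPM at 24 h, a log2 fold change of 3.61 (standard error 1.02, adjusted p = 0.0333 in edgeR's test), with OVA 24 h replicate 1 above the others of its time. Itgae, the integrin chain CD103, was carried by OVA 72 h replicate 3, with 1.51, 0.338, 51.5 and 1.39 CPM at 72 h and 1.54, 0.863, 1.98 and 1.06 CPM at 24 h. Its log2 fold change of 3.31 was -0.34 without that library. S1pr4 rose by 1.59, and by 0.96 without it. Cxcr5, the follicle homing receptor, fell by 1.49, with no overlap between 3.75, 2.70, 4.96 and 4.26 CPM at 72 h and 9.09, 15.9, 7.26 and 11.9 CPM at 24 h. In OVA 72 h replicate 3 the summed markers of macrophages and monocytes (210 CPM), neutrophils (46.2 CPM) and erythroid cells (45.5 CPM) were also the highest at 72 h, where the other 3 libraries had 66.8 to 84.1, 0.0422 to 7.01 and 4.30 to 6.25 CPM. Their part in the values of that library was not tested.

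Few metabolic genes were called. Of 22 glycolysis genes 2 were higher and 1 lower, and of 23 genes of the hypoxia response 1 was higher, Kdm3a (0.78, and 0.50 without OVA 24 h replicate 2), and 0 lower, against 8.17% of all genes higher and 10.4% lower. The medians were 0.51, which was 0.29 to 0.336 without OVA 72 h replicate 1 or 2 or OVA 24 h replicate 2 or 4, and 0.91. Bnip3, a mitophagy gene induced by HIF-1, shows the spread within each time, with 268, 274, 90.0 and 65.4 CPM at 72 h and 129, 7.32, 154 and 4.15 CPM at 24 h (log2 fold change 1.24, standard error 0.84, adjusted p = 0.264 in edgeR's test). The glucose transporter gene Slc2a3 had 503, 1079, 432 and 286 CPM at 72 h and 420, 37.3, 154 and 34.8 CPM at 24 h and was not called (adjusted p = 0.0843 in edgeR's test). In both genes OVA 24 h replicates 1 and 3 exceeded replicates 2 and 4, and without the 8 libraries the hypoxia list had a median of 2.40 and the glycolysis list of 1.18. Pfkm, a phosphofructokinase, was called at 1.14 and Slc16a1, a lactate transporter, at -0.97. The core of the hypoxia response element, ACGTG, was found in 13 of 20 hypoxia promoters matched (65.0%) and 11 of 21 glycolysis promoters (52.4%), against 26.4% of the tested genes.

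**Figure D5:**
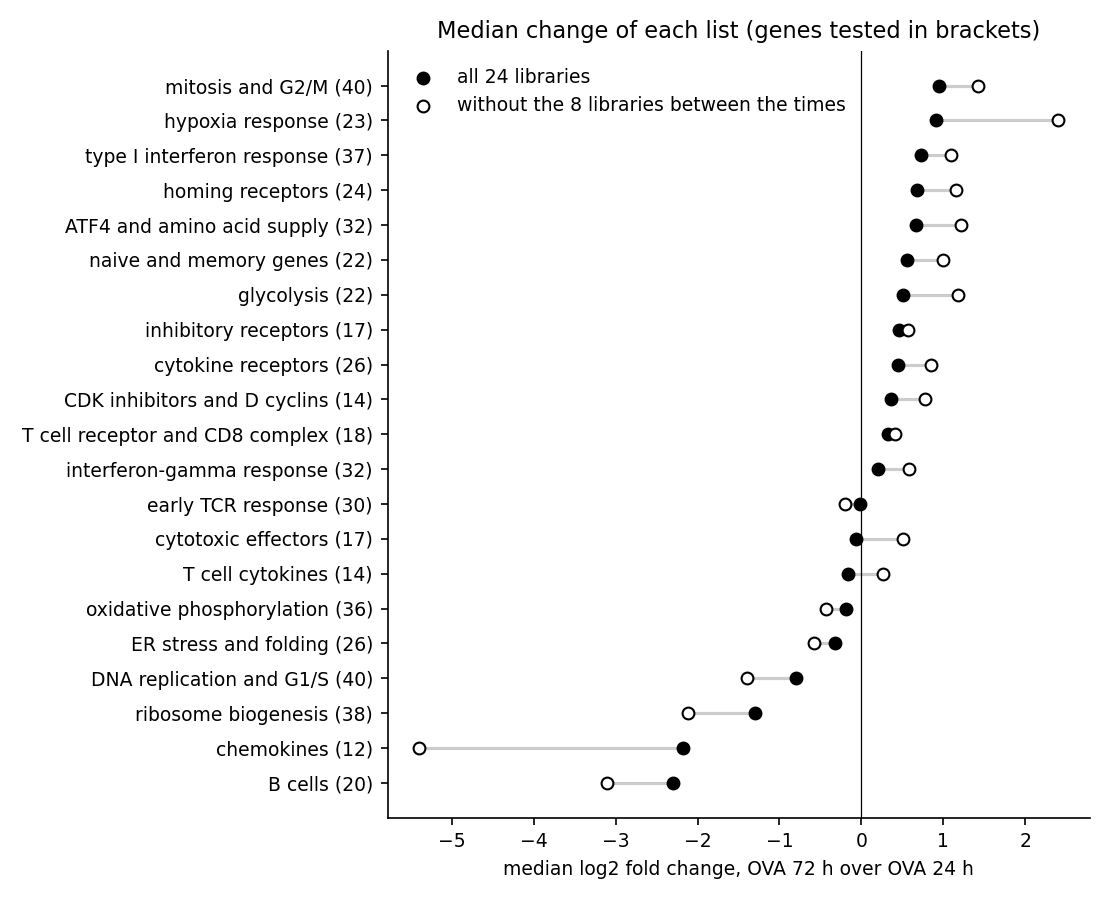
Median log2 fold change of OVA 72 h over OVA 24 h in each list, with all 24 libraries (filled) and without the 8 libraries between the times (open), and the number of genes tested in brackets. Ribosome biogenesis stands at -1.30 and -2.12, chemokines at -2.17 and -5.40, mitosis at 0.95 and 1.42 and the hypoxia response at 0.91 and 2.40.

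Of 26 genes of endoplasmic reticulum stress and folding, 9 were lower, against 10.4% of all genes, and 2 higher. Hspa5, the chaperone BiP, had 603, 574, 491 and 890 CPM at 72 h and 963, 1566, 862 and 1169 CPM at 24 h, a log2 fold change of -0.83 (standard error 0.20, adjusted p = 0.0333 in edgeR's test). Sdf2l1, Pdia6 and Hyou1, also folding factors, had log2 fold changes of -1.14, -1.0 and -0.96, and Sel1l, of the degradation pathway, rose by 0.62, and by 0.40 without OVA 72 h replicate 2. Of 21 genes of fatty acid synthesis and uptake, 5 were lower (23.8%) and 2 higher (9.52%), against 10.4% and 8.17% of all genes. The median log2 fold change was 0.04, with 11 positive and 10 negative values. Fasn and Acaca, the synthase and the carboxylase that make fatty acids, fell by 1.17 and 1.14, Fabp5, a fatty acid carrier, by 1.28, and Cpt1a, which admits fatty acids to mitochondria for oxidation, rose by 0.62, and by 0.40 without OVA 24 h replicate 2. Of 24 cholesterol synthesis genes, 3 were lower (12.5%, near the 10.4% of all genes) and 0 higher, with 12 positive and 12 negative values, the 3 including Idi1 at -1.39 (-2.28 without OVA 72 h replicate 4). Of 36 oxidative phosphorylation genes, 3 were lower (8.33%, under the 10.4% of all genes) and 0 higher, the lowest of the 3 being Ndufa4 at -1.01.

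Of 32 genes of the ATF4 pathway, which supplies amino acids under stress, 2 were higher (6.25%, under the 8.17% of all genes) and 0 lower. The median log2 change was 0.67, and it was 0.384 without OVA 72 h replicate 1 and 0.414 without OVA 24 h replicate 2. Cth, an enzyme of cysteine synthesis, had 59.9, 69.2, 34.2 and 39.9 CPM at 72 h and 37.7, 13.5, 27.0 and 9.46 CPM at 24 h, a log2 fold change of 1.2 (standard error 0.39, adjusted p = 0.0402 in edgeR's test). Cebpg, a partner of ATF4, rose by 0.86. Trib3 had 170, 109, 85.0 and 56.6 CPM at 72 h and 67.0, 2.23, 85.8 and 2.65 CPM at 24 h and was not called (adjusted p = 0.231 in edgeR's test). TGATGNAA, the composite C/EBP-ATF motif, was found in 10 of 24 promoters of this list matched (41.7%), against 2.24% of the tested genes.

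In the Myc and Mxd network of 12 genes 3 were higher, against 8.17% of all genes, and 0 lower. The 3 were Mxd1, Mxd3 and Mxd4, which encode antagonists of Myc, while the antagonist genes Mxi1, Mnt and Mga were not called, with log2 fold changes of 1.47, 0.11 and -0.13. Mxd4 had 30.3, 39.5, 96.0 and 18.8 CPM at 72 h and 26.5, 3.18, 14.1 and 4.86 CPM at 24 h, a log2 fold change of 1.91 (standard error 0.59, adjusted p = 0.0371 in edgeR's test). Mxd1 rose by 1.34 and Mxd3 by 1.21. Without OVA 72 h replicate 3 Mxd4 stood at 1.27 and Mxd1 at 0.68, and without OVA 72 h replicate 1 Mxd3 stood at 0.72. Of 30 genes of p53 and apoptosis 3 were higher (10.0%) and 4 lower (13.3%), near the 8.17% and 10.4% of all genes. The killer proteins Bmf and Bbc3 (PUMA), which act through BCL-2, rose by 1.77 and 2.22, Bbc3 standing at 0.99 without OVA 72 h replicate 3. Bcl2l1, which encodes the survival protein BCL-XL, had 132, 66.7, 42.4 and 154 CPM at 72 h and 178, 241, 189 and 225 CPM at 24 h, without overlap, and fell by 1.08 (standard error 0.29, adjusted p = 0.0333 in edgeR's test). Gadd45b, a stress gene induced by NF-kB, fell by 2.05. Among chromatin genes the demethylase gene Kdm5b rose by 1.05, and Uhrf1 and Dnmt3b, of DNA methylation, fell by 0.99 and 0.94.

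Among the genes with the largest rises and no overlap were several outside these lists. Igfbp7, a secreted binding protein of insulin-like growth factors, had 9.30, 18.3, 14.1 and 19.9 CPM at 72 h and 2.79, 1.09, 0.577 and 0.795 CPM at 24 h, a log2 fold change of 3.52 (standard error 1.06, adjusted p = 0.036 in edgeR's test). Grb10, an adaptor that inhibits insulin receptor signalling, had 22.6, 66.6, 33.5 and 39.6 CPM at 72 h and 11.8, 0.409, 1.69 and 0.177 CPM at 24 h. Its log2 fold change of 3.48 was 5.55 without OVA 24 h replicate 1. Cd80, a ligand of CD28 and CTLA-4, had 31.4, 73.0, 35.0 and 44.5 CPM at 72 h and 18.9, 2.68, 5.73 and 2.12 CPM at 24 h, and rose by 2.63. Wisp1, a secreted CCN protein, rose by 3.20, Itgb3, the integrin chain beta 3, by 2.27, and Cd101, an inhibitory surface protein, by 2.24. Pou6f1 and Scml4, at 2.24 and 2.11, were highest in OVA 72 h replicate 3 and stood at 1.00 and 1.15 without it.

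Genes of B cells made up much of the deepest falls. Of 20 B cell markers, 13 were lower, against 10.4% of all genes, and 0 higher, at a median log2 change of -2.31. The groups did not overlap in 15 of the 20, against 10.6% of all genes. Pax5, the factor that fixes B cell identity, had 0.126, 0.211, 1.64 and 3.11 CPM in OVA 72 h replicates 1 to 4 and 11.5, 21.1, 12.5 and 19.9 CPM in OVA 24 h replicates 1 to 4, a log2 fold change of -3.66 (standard error 0.84, adjusted p = 0.0333 in edgeR's test). Ms4a1 (CD20) and Cd22 had log2 fold changes of -3.57 and -3.09, that of Cd22 being -4.72 without OVA 72 h replicate 4. The B cell receptor heavy chain gene Ighm, in contrast, had 371, 583, 689 and 519 CPM at 72 h and 463, 638, 301 and 527 CPM at 24 h (adjusted p = 0.631 in edgeR's test). In bulk RNA fewer cells of a type and less RNA per cell cannot be told apart. Cd40, Ly86 and Wdfy4, which B cells and dendritic cells express, had log2 fold changes of -3.53, -2.83 and -2.73, and their fall ran beside that of these markers.

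The other marker lists were compared as summed CPM with exact 2-sided permutation tests over the 8 libraries, whose smallest possible p is 0.0286, with adjustment over 11 lists. B cell sums ran from 402 to 787 CPM at 72 h and from 474 to 1055 CPM at 24 h, set mostly by Ighm (exact p = 0.343, adjusted p = 0.511). Dendritic cell sums ran from 135 to 320 CPM at 72 h and from 314 to 687 CPM at 24 h (exact p = 0.0571, adjusted p = 0.126). Of that list Cd209a, Clec9a and Flt3 stayed at or below 1.06 CPM and Zbtb46 at or below 6.68 CPM. H2-Aa, a class II chain that B cells also express, averaged 12.8 CPM at 72 h and 76.7 CPM at 24 h. Ccr9 had 0.0421, 0.0845, 33.0 and 0.598 CPM at 72 h and 1.30, 1.23, 0.866 and 0.707 CPM at 24 h. Its mean of 8.44 CPM at 72 h, against 1.02 CPM at 24 h, was thus set by OVA 72 h replicate 3. The rest at 72 h lay below every library at 24 h. Sums for NK cells were 349 ± 120 CPM at 72 h and 134 ± 86.7 CPM at 24 h (SD, n = 4 each, exact p = 0.0286, adjusted p = 0.105), but they were made up mostly of Klrk1, which CD8 T cells also express, and the NK cell gene Ncr1 stayed at or below 1.77 CPM. Sums for platelets (79.9 against 20.5 CPM) and for stromal and endothelial cells (63.7 against 20.4 CPM) gave the same p, and were made up mostly of Itgb3 and Pecam1, while Gp9 stayed at or below 0.0455 CPM and Col3a1, Dcn and Pdgfra were at 0. No list passed after adjustment. Even lists at the smallest possible p of this permutation test had an adjusted p of 0.105, so no conclusion is drawn from that outcome.

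Whether the change from 24 h to 72 h differed with a TLR agonist in the culture was tested as an interaction, which shares no library between its sides. Against TLR2, whose agonist in the labels' protocol is Pam3CSK4, edgeR called 0 of 14560 genes (0.0%) and DESeq2 called 2, while 918 genes (6.3%) had an unadjusted edgeR p under 0.05. Against TLR7, for which the protocol lists gardiquimod and R848 without saying which was used in these groups, 118 genes were called (0.81%), 102 with a more positive log2 change with peptide alone (0.701%) and 16 with a more negative one (0.11%). Leaving out 1 library at a time gave 0 to 752 calls, and each of the 12 genes named by rule lost its call in at least 1 of these fits. The 0 calls against TLR2 are not read as an equal change with time. Neither count separates an effect of the agonist from where the TLR libraries lay between the times.

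Igfbp7 led the positive differences among the genes named by rule, at 6.48 (standard error 1.52, adjusted p = 0.0454 in edgeR's test). It averaged 15.4 ± 4.75 CPM at 72 h and 1.31 ± 1.01 CPM at 24 h with peptide alone, against 0.546 ± 0.779 CPM at 72 h and 4.66 ± 8.41 CPM at 24 h with the TLR7 agonist (SD, n = 4 each), and omitting TLR7 24 h replicate 3 gave 3.25, omitting the 8 libraries 0.64. Rgs16, a regulator of G protein signals, differed by 4.03 (standard error 0.76, adjusted p = 0.018 in edgeR's test). It averaged 52.8 ± 35.8 CPM at 72 h and 49.5 ± 15.0 CPM at 24 h with peptide alone, against 8.85 ± 8.96 CPM at 72 h and 137 ± 36.4 CPM at 24 h with the TLR7 agonist, so that the fall was on the agonist side. Fcmr, the Fc receptor for IgM on lymphocytes, is also on the list of B cell markers. It differed most of the named genes in the other direction, at -5.42 (standard error 0.96, adjusted p = 0.0172 in edgeR's test). It averaged 3.42 ± 1.72 CPM at 72 h and 13.4 ± 4.28 CPM at 24 h with peptide alone, against 6.70 ± 0.92 CPM at 72 h and 0.578 ± 0.461 CPM at 24 h with the TLR7 agonist. Lta, the gene for lymphotoxin alpha, differed by -2.45 (standard error 0.54, adjusted p = 0.0409 in edgeR's test), with 58.6 ± 49.9 CPM at 72 h and 70.5 ± 23.6 CPM at 24 h with peptide alone, against 161 ± 21.6 CPM at 72 h and 35.4 ± 12 CPM at 24 h with the agonist.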

How the data were processed

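Stranded mRNA libraries were made by poly(A) selection with a TruSeq kit, per the labels' protocols. The authors deposited expected counts per gene, which need not be whole (28.7% of the non-zero values were not), and the submitters' processing notes name STAR, RSEM, edgeR and build GRCm38 without versions or roles. No source used here gives the strand setting of the counting, and antisense and overlapping genes, and near-identical copies (Ifi27l2a, the H2 genes, Pydc3 and Pydc4), are uncertain. Of 48526 genes, 48144 matched a GENCODE M21 gene, the source of coordinates.

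Expected counts were rounded, scaled by TMM, filtered with filterByExpr (minimum count 10, total 15) and fitted in R 4.3.3 with edgeR 4.0.16 (quasi-likelihood, 1 term for each of the 6 groups, 18 residual degrees of freedom, 24 libraries of 10.5 to 27.1 M counts). Limma 3.58.1 was loaded by edgeR, and DESeq2 1.42.0 was an alternative. The labels do not say that replicates are separate mice or cultures, and p-values then reflect only how much these libraries vary, possibly for technical reasons. CPM values are per library total of the genes tested, scaled by TMM. The genes and lists were chosen with earlier results of these data known. Some genes were named by rule, and a part of these is given. A rule took up to 15 rises and 15 falls with the largest change and no overlap between groups. Another took up to 4 called members per list, and another up to 6 per direction for each difference of time effects. Set members such as Pdcd1 and Il2 were added. Other list members, among them Ncl, Polr1b, Egr1, B2m, Hspa5 and Bcl2l1, fell outside these rules and were added by choice. Kdm3a, Cxcl11 and Nfkb1 complete a count. The fit was run on simulated counts as a check of its code only, which says nothing on the calls above. Alternatives were other scaling, filters, a replicate block, subsets of libraries and DESeq2.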

Additional observations from a re-analysis of the deposited data

Results flagged for a closer look

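In 40 of the 316 groups of 4 libraries examined (12.7%), 1 library lay far from the other 3. Chance gives about 1 in 20 for independent groups of normally distributed values. Here CPM were taken without a log scale, in genes chosen with these data known and measured in the same libraries. The share flagged is therefore a description and carries no test. OVA 72 h replicates 4 and 3 gave 13 of these each.

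At 72 h, replicate 4 of OVA was the highest for Utp20 (220 CPM), Dkc1 (329 CPM), Ung (75.3 CPM), Mcm4 (494 CPM), Cd5 (323 CPM), Il2 (66.3 CPM), Cxcl9 (2.15 CPM), Ccl22 (4.90 CPM), Xcl1 (423 CPM), Ccl3 (235 CPM), Ccl4 (278 CPM), Ndufa4 (158 CPM) and Acaca (169 CPM). OVA 72 h replicate 3 was the highest for Tgfbr2 (306 CPM), Klf2 (344 CPM), S1pr1 (565 CPM), Tcf7 (988 CPM), Itgae (51.5 CPM), Mxd1 (66.9 CPM), Bbc3 (57.8 CPM), Pou6f1 (51.7 CPM) and Scml4 (96.9 CPM). It was also highest for the summed markers of macrophages and monocytes (210 CPM), neutrophils (46.2 CPM), erythroid cells (45.5 CPM) and stromal and endothelial cells (135 CPM).

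OVA 72 h replicate 2 was the highest for Ifi27l2a (291 CPM), and OVA 72 h replicate 1 for Prf1 (137 CPM) and Mxd3 (8.50 CPM). OVA 24 h replicate 1 was the highest at its time for Egr1 (45.15 CPM), Tnfaip3 (338 CPM), Ccr6 (5.90 CPM), Bmf (12.2 CPM) and Grb10 (11.8 CPM). OVA 24 h replicate 2 was the highest for Cxcl9 (23.1 CPM) and for the summed markers of macrophages and monocytes (202 CPM), neutrophils (153 CPM) and erythroid cells (26.2 CPM). OVA 24 h replicate 4, the shallowest OVA library, was the lowest for Rsad2 (1.15 CPM) and B2m (893 CPM).

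The change with time with peptide alone differed from that with the TLR7 agonist, by edgeR's test of the difference, in 12 genes named by rule. The log2 difference was 6.48 for Igfbp7, 5.49 for Wisp1, 4.45 for Pydc3, 4.27 for Akap2, 4.03 for Rgs16 and 3.85 for Pydc4. On leaving out 1 library it was 3.25 for Igfbp7 and 3.61 for Wisp1 without TLR7 24 h replicate 3, and 2.40 for Akap2 without OVA 72 h replicate 3. It was -5.42 for Fcmr, -2.45 for Lta, -2.32 for H2-DMb2, -1.70 for St3gal1, -1.56 for Cndp2 and -1.48 for Wdr1. Each of the 12 lost its call in at least 1 such fit, with largest adjusted p values of 0.0557 to 0.164 by edgeR.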

How the results depend on the processing

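The number of called genes, 2710 (1190 higher, 1520 lower), was 1138 (365, 773) with no filter, 7540 (3995, 3545) without the 3 OVA libraries between the times and 7673 (4154, 3519) without all 8 such libraries. It was 0 with only the 8 OVA libraries, with or without a replicate block, and 0 without the 5 shallow libraries. The cause was not tested. Leaving out 1 library gave 0 to 4710 calls (0 to 1873 higher, 0 to 2890 lower). A replicate block in all 24 libraries gave 2783 calls, 2441 of them shared. Deviations of same-numbered libraries correlated at 0.324, -0.214, -0.074 and 0.521, and not every library correlated best with its own number. OVA 72 h replicate 4 correlated at -0.591 and -0.554 with OVA 24 h replicates 1 and 3, which like it lay between the times. With replicates 2 and 4 it correlated at 0.537 and 0.521. These signs are not read as likeness or unlikeness of the libraries, because deviations depend on where each library lay between the times. Whether the numbers pair the samples cannot be told from these values. DESeq2 gave 3966 calls.

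For the TLR2 difference DESeq2 gave 2 calls. For the TLR7 difference, 118 calls became 72 with RLE scaling, 45 without the 8 libraries, 0 without the 5 shallow libraries and 457 with DESeq2, and 0 to 752 on leaving out 1 library.

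Directions reversed without the 3 and without the 8 libraries for Il2ra (0.37 and 0.38), Prf1 (0.50 and 0.51) and Ighm (-0.10 and -0.094). They reversed for Gzmb without OVA 72 h replicate 1 (range on leaving out 1 library -0.12 to 0.72), for Itgae without OVA 72 h replicate 3 (range -0.34 to 3.56) and for the NK marker list as mean log2 CPM (-0.68). Medians of lists, which carry no test, also changed sign: without OVA 72 h replicate 3 for killer-lectin receptors (-0.95, from all libraries 0.50) and macrophages (-2.42, from 0.30), and without the 8 libraries for T cell cytokines (0.27, from -0.16) and cytotoxic effectors (0.51, from -0.06), among others. With list medians counted by the size of their move alone, 2827 values of single genes and lists under alternatives stayed, 1287 lost and 53 gained the call, and 82 moved.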

Other observations

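A set of genes was shared by 1 library of each time. It was chosen after the values were seen, and no test was made. In 28 genes of at least 5 CPM, OVA 72 h replicate 1 and OVA 24 h replicate 3 were both at least 4-fold above OVA 72 h replicates 2 to 4 and OVA 24 h replicates 2 and 4, and in 25 of them OVA 24 h replicate 1 lay between. The median ratio of OVA 24 h replicate 3 to OVA 72 h replicate 1 was 0.937, with a range of 0.641 to 1.76. Both libraries were at least 4-fold above all 6 other OVA libraries in 8 genes.

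Tnfrsf8 (CD30), a receptor of activated lymphocytes, had 366, 2.96, 2.78 and 2.71 CPM in OVA 72 h replicates 1 to 4 and 45.5, 1.09, 365 and 0.619 CPM in OVA 24 h replicates 1 to 4. Il10, the gene for the inhibitory cytokine interleukin-10, had 45.1, 0.0845, 0.091 and 0.199 CPM at 72 h and 2.52, 0.5, 43.5 and 0.265 CPM at 24 h. Il24, a cytokine of the same family, had 17.2 CPM in OVA 72 h replicate 1 and 15.7 CPM in OVA 24 h replicate 3. Among the libraries with a TLR7 agonist at 72 h, Tnfrsf8 ran from 342 to 750 CPM and Il10 from 24 to 94.6 CPM. Tnfrsf8 ran from 37.3 to 122 CPM in TLR2 72 h and from 5.41 to 76.8 CPM in TLR7 24 h. Il10 ran from 2.08 to 8.38 CPM and from 1.56 to 8.08 CPM in the same groups. Whether these 2 OVA libraries share an origin was not tested.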
